A study of Mus musculus with 86 samples.

Results

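Of 57992 genomic regions bound by CTCF in asynchronous mouse embryonic stem cells, 8159 (14.1%) had no SOX2 peak and were called as CTCF peaks again in both mitotic libraries. They are called kept regions here. They were chosen by the peak calls themselves: peaks of the asynchronous CTCF libraries that overlap were merged, regions found in both of these libraries were retained, and kept regions had to share at least 1 bp with a peak of each mitotic CTCF library and none with a peak of either asynchronous SOX2 library. The series profiled chromatin proteins and histone marks by chromatin immunoprecipitation with sequencing (ChIP-seq) in asynchronous and mitotic cells of strain 129S5/SvEvBrd, and the question here is where CTCF is still found on mitotic chromosomes. All cells grew on gelatin in medium with serum and leukemia inhibitory factor, which holds them in self-renewal. Asynchronous cells were untreated. Mitotic cells were held with the microtubule poison nocodazole at 100 ng/ml for 6 h and collected by shake-off. CTCF was precipitated with antibody ab70303 and SOX2 with antibody AF2018, in 2 libraries per condition. The labels number them as replicates without saying whether the cells were grown separately, so their spread may be only technical.

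CTCF is a zinc finger protein that binds a long DNA motif with a conserved core. On interphase chromosomes it stops the cohesin complex as it extrudes loops, and so marks loop anchors and domain boundaries. At imprinted loci, Hox clusters and antigen receptor loci it acts as an insulator between enhancers and genes. During mitosis loops and domains are lost, and how much CTCF stays bound differs between cell types and methods. SOX2 is a transcription factor of the pluripotency network, and the kept regions are CTCF sites at which no SOX2 peak was called in asynchronous cells. A SOX2 peak lay within 1 kb of 828 of them (10.1%).

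The DNA of the kept regions is shown first, because it is what CTCF reads. RefSeq promoter windows on GRCm38.p6, the assembly of mm10, held the full 201 bases around the asynchronous summit for 89 of the 8159 kept regions, all at gene starts, and the rest of the kept regions were not examined for sequence. The 5 with the highest mitotic fold percentile are printed, then the 3 strongest CTCF-only regions with sequence that were called in neither mitotic library (uncalled regions), for contrast. Each is the plus strand, 5′ to 3′, centred on the summit, and capitals mark a core word. Core words are 4 forms of the most conserved part of the CTCF motif, searched on both strands. The first form is AGGGGGC, in which all middle letters are G. The second, which has a T among those letters, is written AGGTGGC. The third form, with both an A and a T there, reads AGATGGC in full. The last of the searched forms, with an A and no T, is AGAGGGC, and no pair of forms can match the same bases.
Med4, kept, chr14:73509813-73510013, mm10, plus strand: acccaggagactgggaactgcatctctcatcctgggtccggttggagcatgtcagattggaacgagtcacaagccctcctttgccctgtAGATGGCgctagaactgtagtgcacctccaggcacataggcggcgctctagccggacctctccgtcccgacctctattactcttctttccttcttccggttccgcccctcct
Crbn, kept, chr6:106800076-106800276, mm10, plus strand: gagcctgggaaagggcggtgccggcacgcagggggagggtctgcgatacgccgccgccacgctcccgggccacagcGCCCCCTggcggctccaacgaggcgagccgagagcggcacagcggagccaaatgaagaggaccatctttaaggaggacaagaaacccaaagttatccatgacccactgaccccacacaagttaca
Gm41414, kept, chr16:5306680-5306880, mm10, plus strand: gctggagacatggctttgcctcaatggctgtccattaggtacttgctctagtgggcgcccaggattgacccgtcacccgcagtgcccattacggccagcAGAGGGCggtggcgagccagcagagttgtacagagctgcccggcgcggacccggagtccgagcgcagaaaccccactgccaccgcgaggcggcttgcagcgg
Mif4gd, kept, chr11:115612551-115612751, mm10, plus strand: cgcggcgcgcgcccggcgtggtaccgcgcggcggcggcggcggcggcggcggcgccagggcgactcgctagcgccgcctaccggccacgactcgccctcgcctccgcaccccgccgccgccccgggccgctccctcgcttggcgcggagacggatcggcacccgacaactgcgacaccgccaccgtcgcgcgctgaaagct
Tbc1d9b, kept, chr11:50131176-50131376, mm10, plus strand: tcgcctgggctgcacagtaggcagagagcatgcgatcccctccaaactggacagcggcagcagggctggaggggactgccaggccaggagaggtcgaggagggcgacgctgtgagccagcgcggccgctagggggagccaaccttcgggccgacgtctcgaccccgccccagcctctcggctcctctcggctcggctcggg
Alcam, uncalled, chr16:52453045-52453245, mm10, plus strand: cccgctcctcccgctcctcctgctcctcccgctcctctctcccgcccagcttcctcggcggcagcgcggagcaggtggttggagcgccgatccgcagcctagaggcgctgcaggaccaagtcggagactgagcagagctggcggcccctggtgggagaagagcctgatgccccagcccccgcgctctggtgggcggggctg
Slc6a19, uncalled, chr13:73692625-73692825, mm10, plus strand: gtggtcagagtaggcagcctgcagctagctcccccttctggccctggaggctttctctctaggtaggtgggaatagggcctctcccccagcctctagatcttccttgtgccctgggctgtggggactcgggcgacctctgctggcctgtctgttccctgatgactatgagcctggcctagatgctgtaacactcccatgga
Sbk2, uncalled, chr7:4964408-4964608, mm10, plus strand: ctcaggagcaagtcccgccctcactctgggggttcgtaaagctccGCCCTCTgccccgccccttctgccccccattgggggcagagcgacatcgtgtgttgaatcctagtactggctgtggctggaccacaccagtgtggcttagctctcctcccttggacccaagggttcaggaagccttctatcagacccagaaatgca
The first 3 lie at the starts of Med4, a subunit of the Mediator complex, Crbn, the substrate receptor of a ubiquitin ligase, and the long noncoding RNA gene Gm41414, and each holds 1 core word, with its centre 8, 21 and 2 bp from the summit. The sequences at Mif4gd, which acts in translation of histone messages, and Tbc1d9b hold none of the 4 words. Of the 3 uncalled sequences, those at Alcam, a cell adhesion molecule, and Slc6a19, an amino acid transporter, hold no core word, and that at the kinase gene Sbk2 holds 1 at 52 bp from the summit.

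Core words were found in 62 of the 89 kept regions with sequence (69.7%, 95% Wilson interval 59.5 to 78.2%) and in 49 of 105 uncalled ones (46.7%, 37.4 to 56.2%). The difference was 23 percentage points (95% Newcombe interval 9.06 to 35.6). It was 23.1 points with mitotic library 1 alone and 19.3 points with mitotic library 2 alone. The share was 70.0% (14 of 20) in CTCF-only regions called in 1 mitotic library. It was 70.1% (185 of 264) in regions with SOX2 called in both, from which kept regions differed by −0.41 points (−11.9 to 9.93). The middle 201 bases of all promoter windows held a core word in 20% of 32851 cases. Kept regions with sequence were stronger in asynchronous cells (median strength percentile 89.4) than uncalled ones (47.2), strength being the percentile of the peak's fold within its own asynchronous list, averaged over both lists. Within 10 classes of equal strength the difference was 6.61 points and its interval took in 0 (−22.3 to 35.5). With classes drawn over the regions with sequence alone, a choice made after seeing the data, it was 21.3 points (−7.44 to 50.1). These intervals, like all others below, cover counting error over regions only and treat regions as independent.

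The letters around the nearest core word were more alike among kept than among uncalled regions. Where a letter is given if it was found in at least 60% of words, the kept regions read nnGCCnnnAGGGGGCGnnnn and the uncalled regions read nnnnnnnnAGnGGGCnnnnn, capitals marking the shared letters. Letters 1, 2, 5, 6 and 7 of the word were fixed by the search, and letters 3 and 4 were limited to those of the 4 forms. The pair CC of the first string was present in 47 of 62 kept words (75.8%) and in 18 of 49 uncalled words (36.7%). The commonest word was AGGGGGC at kept regions, present in 32, and AGAGGGC at uncalled regions, present in 25. The median distance from the summit to the centre of the nearest word was 14.5 bp in kept and 20 bp in uncalled regions. The word lay within 25 bp of the summit in 49 of the 62 (79.0%) and in 26 of the 49 (53.1%). The flank and distance patterns were looked for after the sequences were seen, and are given as a description.

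**Figure D1:**
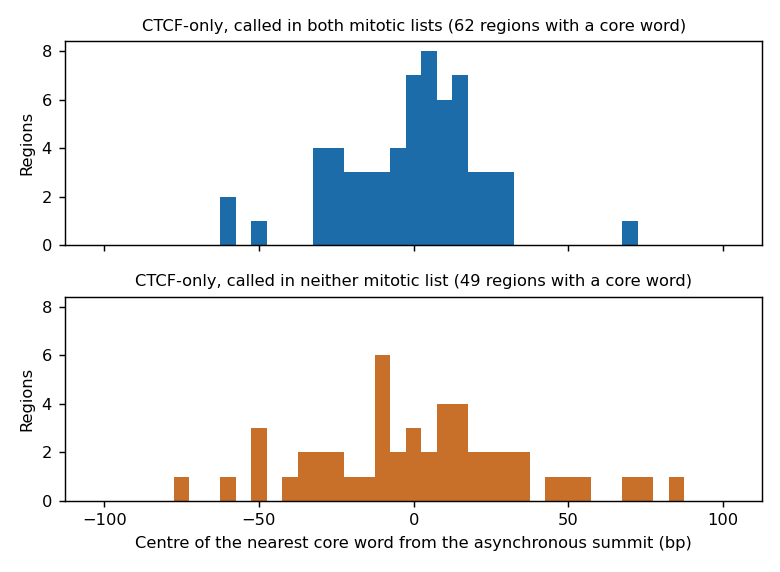
Distance in bp from the asynchronous CTCF summit to the centre of the nearest core word (horizontal axis) against the number of regions (vertical axis), for 62 kept regions above and 49 uncalled regions below. Words of kept regions lie mostly within 25 bp of the summit (49 of 62), and those of uncalled regions are more spread (26 of 49).

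Of 40058 CTCF-only regions, which have no asynchronous SOX2 peak, 8159 (20.4%, 95% Wilson interval 20 to 20.8%) were called in both mitotic libraries. The share over all CTCF regions was 24.5%. The rule uses these calls, so nothing is read from this pair of shares. Mitotic library 1 called 11277 of the CTCF-only regions (28.2%) and library 2 called 8483 (21.2%), a mean of 24.7% ± 4.93 (SD, n = 2). Over all CTCF regions these libraries called 33.0% and 25.4%. The calls of library 2 were nearly a subset, since 96.2% of its CTCF-only regions were also called in library 1. A further 3442 regions were called in 1 library, 3118 of them in library 1 alone and 324 in library 2 alone. The remaining 28457 (71.0%) were called in neither. With mitotic library 1 as the sole mitotic library, the kept share was 28.2%. Leaving out asynchronous SOX2 library 1, the longer SOX2 list with 90266 peaks, raised the kept regions from 8159 to 10492.

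The depth of the libraries is not given, and the lists allow 1 rough estimate of it. The lowest local background in a list, taken as the genome-wide level and divided by its shortest peak width, was 3.36 and 3.71 reads per 100 bp in the asynchronous libraries and 3.62 and 3.77 in the mitotic ones. It rests on MACS2's default treatment of background and width, and the options used are unknown. Under MACS2's Poisson model the deposited fold and −log10 p of a peak give the reads over its summit, which came out whole within 0.02 reads for 100% of peaks in each CTCF list. At kept regions the median coverage was 111 and 111 reads in the asynchronous libraries and 54.0 and 43.0 reads in the mitotic ones. Both mitotic medians lay below the lower quartile of 90 reads of either asynchronous library. The ranges overlapped, from 22 to 386 reads in asynchronous library 1 and from 21 to 410 in mitotic library 1. Coverage is a value per library, not scaled between libraries, and it is no measure of CTCF per chromosome.

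The authors' fold over background had medians of 10.3 and 10.3 at kept regions in the asynchronous lists and of 5.93 and 4.59 in the mitotic lists. Uncalled regions had asynchronous medians of 5.06 and 4.75, and regions called in 1 mitotic library lay between the classes in asynchronous library 1 at 8.55. Fold is a value of its own list, and these medians are set side by side without a test.

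**Figure D2:**
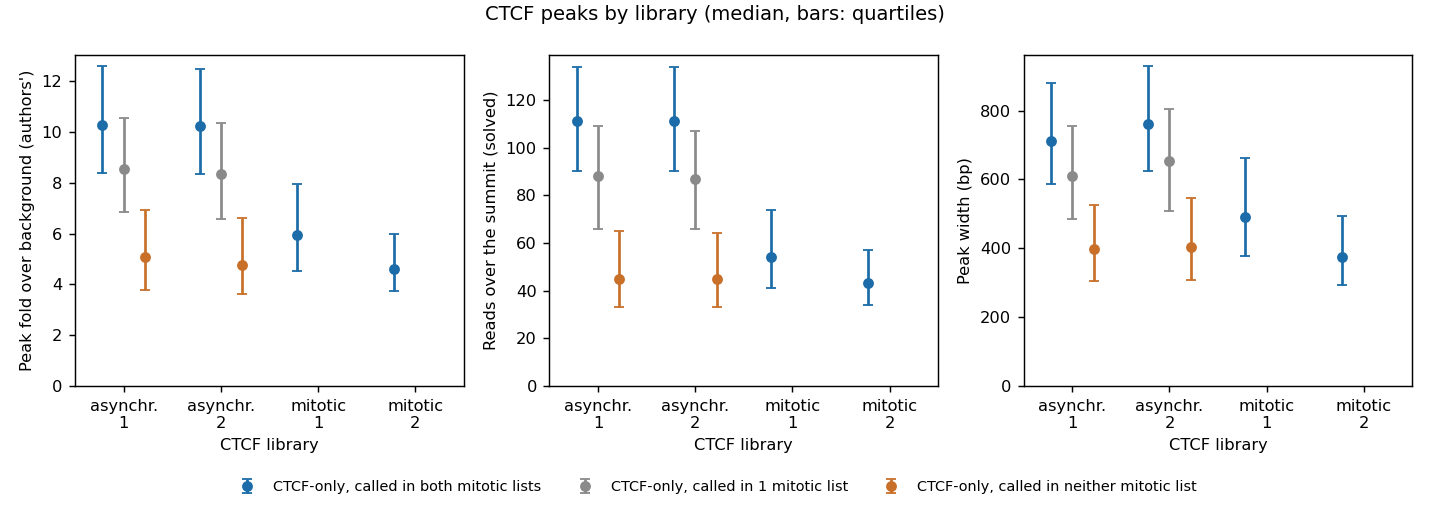
Median (points) and quartiles (bars) of the authors' peak fold over background, the reads over the summit and the peak width in bp, by CTCF library and class of region; mitotic values are given for kept regions only. Of the 3 CTCF-only classes, kept regions have the highest asynchronous medians in each panel, and their mitotic medians are lower than their asynchronous ones.

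Kept regions had stronger asynchronous peaks than the other CTCF-only regions. Their median strength percentile was 82.2 (quartiles 73.0 and 89.5), against 72.3 for regions called in 1 mitotic library and 43.9 for uncalled regions. Regions with SOX2 called in both mitotic libraries were stronger still, at 86.9. Among the weakest of 10 equal classes of CTCF-only regions, 1 of 4005 was kept (0.0250%). In class 5 the share was 3.72%, in class 8 it was 37.1%, and in the strongest class 2885 of 4006 were kept (72.0%, 70.6 to 73.4%). The same order was seen in each mitotic library, with 0.599% to 83.7% called in library 1 and 0.125% to 73.0% in library 2. Ranking by −log10 p in place of fold gave 0 of 4005 and 77.5% at the ends. The rule used calls in all 4 CTCF lists, so these shares are a description.

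**Figure D3:**
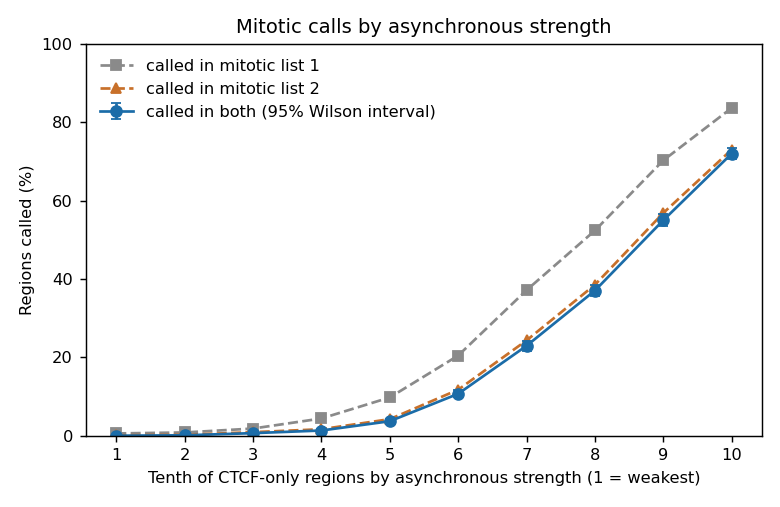
Share of CTCF-only regions called (%), in mitotic library 1, mitotic library 2 and both, for 10 equal classes by asynchronous strength from weakest (1) to strongest (10); bars are 95% Wilson intervals. The share called in both runs from 0.0250% to 72.0%, and library 1 calls more than library 2 in every class.

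Near the threshold, the lower of a kept region's 2 mitotic −log10 q values was at least 1.39, with a median of 13.0. It was under 2 in 18 kept regions (0.221%), and 7418 (90.9%) had at least 5 in both lists. Regions called in mitotic library 1 alone had a median −log10 q of 7.09 there and a median strength of 72.3. Those called in library 2 alone had 5.43 and 72.6. Both groups just outside the rule had a lower median strength than the kept regions.

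Mitotic and asynchronous summits lay close together at kept regions. The median distance between summits was 22.0 bp from asynchronous to mitotic library 1 and 24.0 bp from asynchronous to mitotic library 2, against 16.0 bp between the asynchronous libraries and 26.0 bp between the mitotic libraries. Summits lay within 50 bp of each other in 94.5% of kept regions between asynchronous libraries, in 77.2% between mitotic libraries and in 85.1% and 81.2% for the pairs of the same number. The median distance between conditions was below that between the mitotic libraries. The strongest mitotic peak lay wholly inside the merged asynchronous region for 79.7% of kept regions in library 1 and 93.9% in library 2. The rule required mitotic peaks to overlap the asynchronous region, which bounds these distances and shares, so they are a description.

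Mitotic peaks were called narrower. Median widths at kept regions were 711 and 762 bp in the asynchronous lists and 491 and 376 bp in the mitotic lists. The median ratio of mitotic to asynchronous width was 0.703 in the first pair and 0.507 in the second, and the mitotic peak was the narrower one at 81.9% and 96.9% of kept regions. Between the mitotic lists the ratio of library 2 to library 1 was 0.775. Coverage over the summit moved with width, as given above, and its part in these ratios was not tested.

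Ranks among kept regions were shared more within a condition than between conditions. Over 8159 regions, Spearman's rho of the folds was 0.48 between asynchronous libraries, 0.76 between mitotic libraries and 0.28 to 0.30 between conditions. These are correlations across regions that share libraries and are not independent replicates.

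The 10 kept regions with the highest mitotic fold percentiles all had strong peaks in all 4 libraries, with folds of at least 19.8 in the asynchronous and 25.1 in the mitotic lists, and 8 of them lay in a gene. The first was in Erc2, which encodes a scaffold of the presynaptic active zone, at chr14:27803475-27804901, with folds of 39.6 and 27.05 in the asynchronous lists and 40.4 and 39.0 in the mitotic lists. Next was chr5:120102162-120103890, 13.6 kb from Rbm19, a gene of ribosome biogenesis, with folds of 37.1 and 31.3 and then 42.7 and 37.1. The region in Coa5, a cytochrome c oxidase assembly factor, at chr1:37418856-37420474, had folds of 41.2 and 40.9 and then 39.3 and 33.4. These were followed by regions in Ctif, Iffo2, Apbb2 and Niban2. The eighth lay in Ctcfl, the germline paralog of Ctcf itself, at chr2:173096900-173098071, with folds of 34.4 and 36.3 in the asynchronous and 35.2 and 25.1 in the mitotic lists. A region in Rtkn2 and one 9.46 kb from 2300002M23Rik completed the set.

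The 5 kept regions that were weakest in asynchronous cells had strength percentiles of 19.4 to 29.0. The weakest lay in Sema3f, a secreted axon guidance factor, at chr9:107709332-107709961, with folds of 3.08 and 3.35 in the asynchronous and 2.92 and 2.79 in the mitotic lists. The others were 1.91 kb from Gm21663, 72.0 kb from Sntg1, in the heavy chain locus Igh at chr12:114615138-114615567, and at the start of Nbea. These folds were low in every library. At a −log10 q of at least 5 in every list, the Sema3f, Gm21663, Sntg1 and Nbea regions left the set. The Nbea region also left it at an overlap of 50% of the shorter interval, with summits required within 100 bp, and without asynchronous CTCF library 1. With a fold of at least 5 in every list all 5 regions left the set, since their highest asynchronous fold was 4.74.

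The 5 widest kept regions spanned 3450 to 3629 bp and were merged from 2 to 5 asynchronous peaks. The widest, chr12:113219643-113223271, lay 32.9 kb from Tmem121 and 36.4 kb from Igh, with folds of 20.6 and 12.9 in the asynchronous and 20.8 and 14.4 in the mitotic lists. The next, chr4:137722319-137725885, lay at the start of Rap1gap, which encodes an inactivator of the small GTPase Rap1, and had folds of 27.1 and 31.1 and then 23.4 and 18.5. The others were in 2900026A02Rik and Gm31686 and 1.43 kb from Celf5. The median width of merged asynchronous regions was 839 bp for kept, 720 bp for regions called in 1 mitotic library and 465 bp for uncalled regions. More than 2 peaks had been merged in 400 kept regions (4.90%) and in 1.28% of uncalled ones.

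Some of the strongest asynchronous regions were uncalled. The 5 strongest of these had strength percentiles of 99.1 to 99.4. They lay in Cfap45, a gene of ciliary microtubules, in the T cell receptor locus Tcra, 29.6 kb from Snx6, in Prim2, a subunit of DNA primase, and at Pfdn2 and Klhdc9. The region in Cfap45, chr1:172528240-172529579, had folds of 24.4 and 21.2 in the asynchronous lists, and that in Tcra, chr14:53654338-53655350, had 25.4 and 20, both without a mitotic peak in either list.

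Kept regions were spread over genes and the spaces between them. Of the 7968 on chromosomes for which transcription start positions were used here (chromosome 18 was not), 365 (4.58%, 4.14 to 5.06%) lay within 1 kb of a start, 45.5% inside a protein-coding gene away from starts and 49.9% outside protein-coding genes. A start lay within 10 kb of 31.3% and within 100 kb of 88.96%. The median distance to the nearest start was 19.4 kb in kept and 19.4 kb in uncalled regions. At starts, the strongest kept peaks were those of Rap1gap, of Ocel1 at chr8:71371168-71372537 and of 4930478P22Rik. The fourth and the fifth lay at the noncoding genes Gm35524 and Gm46266, the latter inside Emid1.

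Uncalled regions were slightly less often at starts, 1098 of 27687 (3.97%), a difference of 0.615 points (0.118 to 1.15). It was 0.641 points with mitotic library 1 alone, 0.484 with library 2 alone and 1.38 (0.591 to 2.16) within strength classes. The direction of this difference depended on the asynchronous lists: it was −0.691 points without asynchronous CTCF library 1, −0.265 without library 2 and −0.979 with regions of either asynchronous list. It was −0.108 points with starts within 2.5 kb and −0.425 with libraries paired by number. With a fold of at least 5 in every list it was 3.64 points. Regions bound by CTCF and SOX2 and called in both mitotic libraries were at starts far more often (16.8%), and kept regions lay 12.3 points below them (11.2 to 13.3 points lower).

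Fewer kept regions lay in protein-coding genes, 3850 of 8159 (47.2%) against 15384 of 28457 uncalled regions (54.1%). The difference was −6.87 points (−8.10 to −5.64), −6.24 with mitotic library 1 alone, −6.46 with library 2 alone and −5.51 (−7.49 to −3.53) within strength classes. It kept its sign, with an interval clear of 0, under all settings tried. Compared with kept regions that had SOX2 (43.4%), the kept regions without it were in genes more often, by 3.74 points (2.08 to 5.39).

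**Figure D4:**
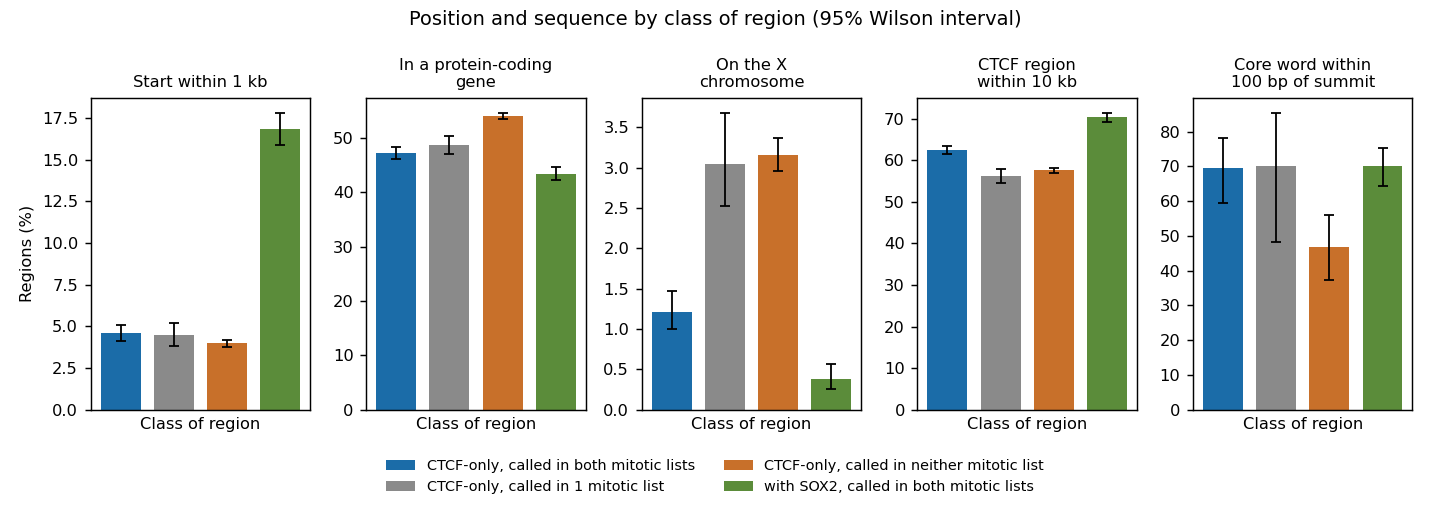
Share of regions (%) within 1 kb of a start, in a protein-coding gene, on the X chromosome, with another CTCF region within 10 kb and with a core word within 100 bp of the summit, by class of region; bars carry 95% Wilson intervals. Kept regions are below uncalled ones in genes and on X, above them for neighbours and core words, and far below the regions with SOX2 at starts.

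The X chromosome had the lowest kept share. There 99 of 1101 CTCF-only regions were kept (8.99%, 7.44 to 10.8%), against 8056 of 38944 (20.7%) on the autosomes. The X share depended on the library: mitotic library 1 called 18.4% of the X regions and library 2 called 9.08%, against 28.2% and 21.2% of all CTCF-only regions. X carried 1.21% of kept and 3.15% of uncalled regions, a difference of −1.94 points (−2.24 to −1.61). This was −1.32 points with mitotic library 1 alone, −1.99 with library 2 alone and −1.13 (−1.69 to −0.580) within strength classes. Strength moved with it, since the median percentile was 49.8 on X and 55.2 on the autosomes. Among regions at least as strong as the median kept region, 20 of 57 on X (35.1%) and 4057 of 5959 on autosomes (68.1%) were kept. Of the regions with SOX2 called in both mitotic libraries, a still smaller share lay on X (0.380%). The number of X chromosomes in these cells is not given in the sources used here. CTCF-only regions were called on Y as well (13), and the part of X copy number in the X share was not tested.

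Among autosomes the share ran from 16.6% on chromosome 16 (220 of 1325) to 24.3% on chromosome 5 (760 of 3128). Chromosomes 11 (23.2%) and 8 (22.6%) came next after chromosome 5, with overlapping intervals. Median strength was 57.6 on chromosome 5 and 52.8 on chromosome 16. The Y chromosome had 13 CTCF-only regions, of which 4 were kept, too few for a comparison.

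**Figure D5:**
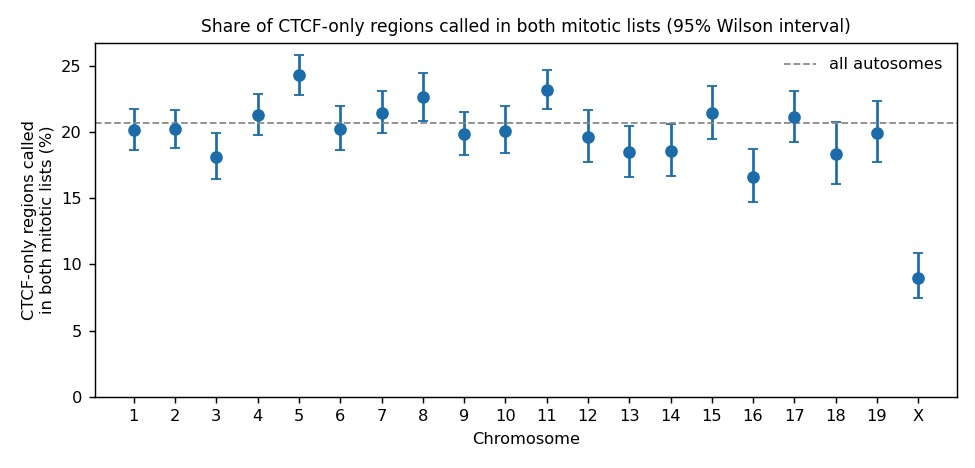
Share of CTCF-only regions called in both mitotic libraries (%) by chromosome, with 95% Wilson intervals; the dashed line is the share over all autosomes, 20.7%. X lies lowest at 8.99% and chromosome 5 highest at 24.3%; Y, with 13 regions, is not drawn.

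Kept regions had another CTCF region within 10 kb more often than uncalled ones, 62.6% against 57.7%, a difference of 4.88 points (3.68 to 6.07). The difference was 3.06 points with mitotic library 1 alone, 3.23 without asynchronous library 2 and 2.64 with libraries paired by number. It was 9.34 points with a fold of at least 5 in every list, 2.53 with regions of either asynchronous list and 1.74 with a window of 50 kb. Within strength classes it was 1.37 points and its interval took in 0 (−0.543 to 3.28). Regions with SOX2 called in both mitotic libraries had a neighbour more often still (70.4%), and kept regions differed from them by −7.80 points (−9.35 to −6.23). The median gap to the nearest region was 6.26 kb for kept and 7.49 kb for uncalled regions. Kept regions also followed each other along the chromosome. When a CTCF-only region was kept, the next one under 2 kb away was kept in 30.3% of 729 cases, against 21.4% of 2453 cases after a region that was not kept. At gaps over 200 kb the shares were 19% and 16.6%. These shares were not matched for strength.

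One kept region shared a mitotic SOX2 peak, the one at the start of Crbn printed above (chr6:106799847-106800573). Its CTCF folds were 10.2 and 13.3 in the asynchronous and 12.5 and 13.0 in the mitotic lists. This is 0.0123% of kept regions (0.00216 to 0.0694%). Kept regions with asynchronous SOX2 had such a peak in 286 of 6051 cases (4.73%), and the rule's lack of asynchronous SOX2 bears on that contrast. Without asynchronous SOX2 library 1 the share was 0.0762%.

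Genes of chromosome structure, mitosis and pluripotency, and loci known for CTCF sites, were taken by list, counting regions within 50 kb of the gene body once per list. Over all CTCF-only regions 20.4% were kept and the median strength was 55.0. The kept share was 9.43% near 24 cohesin, condensin and CTCF genes (10 of 106, median strength 46.8), 14.1% near 25 pluripotency genes (18 of 128, 45.6) and 18.4% near 18 mitotic regulators (14 of 76, 47.0). It was 19.4% near 24 imprinted genes (12 of 62, 61.4), 23.4% near 16 genes of antigen receptor, globin and protocadherin loci (40 of 171, 49.2) and 36.4% near 20 Hox genes (8 of 22, 70.2). The Hox list had both the highest kept share and the highest median strength, and a link between share and strength was not tested. Its Wilson interval (19.7 to 57.0%) took in the share over all CTCF-only regions, 20.4%. The intervals of the imprinted, pluripotency, antigen receptor and mitotic regulator lists took in that share as well. Only the interval of the cohesin list (5.21 to 16.5%) lay below it. Shares by list were not matched for strength. The cohesin list had 18 kept regions without mitotic CTCF library 2, and 17 when only SOX2 regions of both asynchronous SOX2 lists were excluded.

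Among cohesin, condensin and CTCF genes, Ctcfl had 3 of 8 CTCF-only regions kept, 2 of them in the gene, and Ctcf had 2 of 6. The stronger one near Ctcf, chr8:105713837-105714764, had folds of 14.3 and 12.5 in the asynchronous and 12.1 and 7.60 in the mitotic lists. Smc3 and Smc2, core subunits of cohesin and condensin, Wapl, which releases cohesin from DNA, the cohesin deacetylase gene Hdac8 and the condensin gene Ncapd2 had 1 each. None was kept at the cohesin loader gene Nipbl, at Cdca5, which protects cohesion, or at the condensin genes Smc4, Ncaph and Ncaph2, each with 7 CTCF-only regions.

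Among imprinted genes, Kcnq1 had 3 of 10 CTCF-only regions kept, and Cdkn1c and Phlda2 had 3 of 5 each. These are 4 distinct regions, of which 3 lie near more than 1 of the genes. The region chr7:143465834-143466989 had folds of 15.6 and 12.5 in the asynchronous and 10.8 and 7.83 in the mitotic lists. Near Meg3, Dlk1 and Rtl1, genes of 1 imprinted domain, there was 1 each, the same one for Meg3 and Rtl1. The best known imprinting control element bound by CTCF lies between Igf2 and H19. Of 5 CTCF regions near Igf2 and 6 near H19, 3 and 1 were CTCF-only, and none of these was kept. The other regions carried SOX2 and fall outside the rule, so these counts do not show whether CTCF was kept at that element. None of 8 was kept at Zrsr1 and none of 5 at Snrpn.

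Hox genes are ordered in clusters whose domain borders hold CTCF sites. Hoxb13 had 4 of 7 CTCF-only regions kept and Hoxb9 had 3 of 5, with 2 regions in common. The one nearest Hoxb13, chr11:96198178-96199189, had folds of 12.8 and 11.5 in the asynchronous and 4.32 and 3.82 in the mitotic lists. In the Hoxd cluster Hoxd4, Hoxd9, Hoxd10 and Hoxd13 had 2 kept regions each, the same 2 for all 4 genes. The Hoxa genes had none, and most of their CTCF regions carried SOX2, so that Hoxa5, Hoxa9, Hoxa10, Hoxa11 and Hoxa13 had no CTCF-only region at all. With no SOX2 peak allowed within 1 kb, 5 in place of 8 kept regions were left near Hox genes.

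In the pluripotency list the core factors had none within 50 kb: 0 of 11 CTCF-only regions near Pou5f1, 0 of 7 near Nanog, 0 of 8 near Sall4 and 0 of 2 near Sox2. With those that carried SOX2, there were 23 CTCF regions within 50 kb of Pou5f1, 14 of Nanog, 15 of Sall4 and 9 of Sox2. Regions with SOX2 fall outside the rule, so these counts do not show whether CTCF was kept at these genes. No other distance was tried. Beyond it, the kept region chr17:35577782-35579416, named above by 2300002M23Rik, lies on the chromosome of Pou5f1 (chr17:35506032-35510777). The kept regions near Dppa3 lie on that of Nanog. The most kept regions of this list lay near Lefty1, a secreted Nodal inhibitor, with 5 of 8, and its neighbour Lefty2 had 3 of 8, of which 2 are also among those of Lefty1. The strongest of these in asynchronous cells, chr1:180919457-180920237, had folds of 15.7 and 13.3 in the asynchronous and 7.13 and 5.67 in the mitotic lists. Dppa3 had 2 of 8. Tcf3, matched by symbol to chr10:80409541-80433976, had 3 of 6. That gene encodes an E protein, and the pluripotency factor once called by the same name is Tcf7l1, which was not in the list. The regions near Tcf3 are still counted in the shares of the pluripotency list.

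At antigen receptor loci, where CTCF sites lie among the variable segments, Igh had 16 of 49 CTCF-only regions kept, Tcra 11 of 46 and Tcrb 5 of 12, while Igk had 3 of 46. These genes are assembled and used in lymphocytes. Hba-a1, an alpha globin gene, had 3 of 6 kept, of which chr11:32320606-32322071 had folds of 19.7 and 23.1 in the asynchronous and 12.6 and 8.28 in the mitotic lists. Of the protocadherin genes only Pcdha1 had a kept region, 1 of 3, while 38 CTCF regions lay near Pcdhga1, 6 of them without SOX2. With a fold of at least 5 in every list, 18 in place of 40 kept regions were left in this list.

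Among mitotic regulators Cdk1, the kinase that drives entry into mitosis, had 2 of 3 kept, the kinase gene Plk1 had 2 of 5, Birc5 2 of 7 and Top2a 2 of 12. The kept region nearest Cdk1, chr10:69321145-69321879, had folds of 13.5 and 13.7 in the asynchronous and 11.8 and 6.45 in the mitotic lists. None was kept at Bub1 (0 of 4), Ccnb2 (0 of 4) or Ttk (0 of 4). With no SOX2 peak allowed within 1 kb, 9 in place of 14 kept regions were left in this list.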

How the data were processed

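CTCF and SOX2 ChIP-seq were used as 8 peak lists, 2 libraries each per factor and condition, of the 86 libraries in the series. The submitters' processing notes name MACS2 2.1.1.20160309, BWA 0.7.17, CASAVA 1.4 and SAMtools, and the build mm10. Options and the control: not given in the sources used here. For each library the authors deposited 1 list, without pooling, with each peak's fold (a ratio of summit coverage to local background), −log10 p and −log10 q. The deposited score and the summit offset are in the same lists; the score was not used. Fold, −log10 p and −log10 q are the authors' values and serve within their own list. Kept regions and gene lists were chosen with earlier results of these data known.

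Intervals were merged and intersected in Python 3.11.15 (numpy 2.4.6, pandas 2.3.3, scipy 1.17.1), and bedtools 2.31.1 gave the same 8159 kept regions. The code was tested on simulated data. Conditions were compared by calls. Position and sequence features of kept and uncalled regions were compared by 95% Newcombe intervals, shares by Wilson intervals, and again within 10 strength classes. Genes (49939, of which 21883 are protein-coding), start positions and promoter sequences came from RefSeq on GRCm38.p6, and all 127 list genes matched. Named were the 10 kept regions strongest in mitosis, the 5 weakest in asynchronous cells, the 5 widest, the 5 strongest at starts, the 5 strongest uncalled ones, and per list the genes with most kept regions, or with CTCF-only regions and none kept. Any other gene or region named was picked with its values in view. Alternatives are given in the closing section.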

Additional observations from a re-analysis of the deposited data

How the results depend on the processing

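Peak lists hold no reads, so depth limits these results through the calls: a region with no mitotic peak was not called at this depth, which does not show that CTCF was absent. Sequence was at hand for 89 kept regions at gene starts only, and each condition had 2 libraries. Of 718 values recomputed under other settings, 675 kept their direction and side of the threshold or their size. Most were checks of named regions, 476 with 464 unchanged, and many of these regions were picked for their strength. Another 78 were list counts, of which 73 stayed within 1.5 times. The total therefore says less about the other results. Of 37 named regions, 29 kept their class under each setting they were checked under. A named region with no asynchronous region left under a setting was not checked there. At a fold of at least 5 this held for those at Sema3f, Gm21663, Sntg1, Igh and Nbea, so these counts overstate how many stayed. With no SOX2 peak allowed within 1 kb, those in Apbb2, Niban2, Sema3f and Cfap45 and at Gm35524 left their class.

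The difference at start sites was reversed with regions of either asynchronous list (−0.979 points), with starts within 2.5 kb (−0.108) and without asynchronous CTCF library 1 or 2, and ran from −0.691 to 0.694 points over the libraries left out in turn. With summits within 100 bp it was 0.472 and its interval took in 0. Within strength classes, the neighbour difference was 1.37 points and the core word difference 6.61 points, or 21.3 with classes over the regions with sequence, all with intervals that took in 0. A fold of at least 5 gave 5136 kept regions, a median strength of 87.8, a mean summit distance of 19.5 bp, a mean width ratio of 0.717 (0.602 as reported, over the 4 pairs of lists) and 0 kept regions with a mitotic SOX2 peak. Median strength was 83.4 at a −log10 q of at least 5, 83.3 when only SOX2 regions of both lists excluded, 82.9 by −log10 p, and 79.8 to 83.3 without each library in turn. The kept share was 17.6% to 28.2% without each library. The mitotic SOX2 share was 0.0916% when only SOX2 regions of both lists excluded, and 0.00887% to 0.0762% without each library. The cause of these shifts was not tested.

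With the replicate block, which pairs libraries of the same number and averages both pairs, the start difference was −0.425 points, the median strength 81.4 and the summit distance 24.0 bp. It gave 10093 kept regions and changed no other call. The deviations of same-numbered lists had a correlation of 0.0257 over kept regions. With 2 pairs, this value cannot tell whether libraries of the same number also share a culture or a batch.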

Other observations

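The kept share varied between megabases, and it was not compared with the spread that counts of this size would give. Of 781 windows of 1 Mb with at least 20 CTCF-only regions, the median kept share was 20%, 29 windows had 40% or more and 9 had none, 3 of these on X. The window with most kept regions was chr5:150000001-151000000, with 27 of 66, which holds the DNA repair gene Brca2 and the cohesin regulator gene Pds5b. Of the 4 CTCF-only regions within 50 kb of Pds5b, none was kept. The highest share was 55.3% at chr4:151000001-152000000, with 26 of 47, which holds Camta1 and the clock gene Per3. Among windows with at least 40 CTCF-only regions, chr10:128000001-129000000 had 1 of 53 kept (1.89%) among 51 protein-coding genes, Timeless and Prim1 among them.

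The longest run of neighbouring CTCF-only regions that were all kept had 8 members over 175 kb at chr5:127403282-127578026, where Tmem132c, a transmembrane protein gene, is the annotated gene. Their folds ran from 5.81 to 11.3 and from 5.89 to 10.2 in the asynchronous lists, and from 3.89 to 6.89 and from 3.18 to 6.24 in the mitotic lists. These windows and this run were picked for their counts, with no test.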
